A study of Mus musculus with 2 samples.

Results

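Barcodes of dispersed mouse islets that carried the epithelial transcripts Krt19 and Epcam were examined, under the working name of duct-like cells with intestinal genes. A barcode was a member if it held at least 3 unique molecular identifiers (UMIs, counted RNA molecules) of Krt19 and at least 1 of Epcam. It also had to have at least 500 genes, at least 2000 UMIs, at most 20% mitochondrial UMIs and under 15% of UMIs from the insulin genes Ins1 and Ins2. In all, 112 of the 6927 barcodes that met the last 4 limits were members (1.62%, exact binomial 95% interval 1.33% to 1.94%). Members were thus chosen by their measured Krt19 and Epcam counts, which are given as a description only. The data went against the name for most of the intestinal genes. Spp1, a duct transcript, and Fabp1, Fabp2 and Rbp2, transcripts of absorptive intestinal cells, lay in separate barcodes, and only Spink4 lay at 3 or more UMIs beside Spp1.

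The study concerns BAF60C, a chromatin-remodelling subunit encoded by Smarcd3. Its groups are islets of flox/flox mice, for which the label names no Cre, and islets labelled BcBKO. The latter stands for loss in beta cells, made with Pdx1-cre according to the labels. Each group was 1 droplet library of 3′ transcript tags from islets pooled from at least 3 mice, so there are no replicates and no test between groups, and intervals cover counting error only. The labels give neither age, sex nor strain, and the Pdx1 promoter that drives the Cre is active in the embryonic pancreas, from which ducts also arise.

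The flox/flox library held 60 members among 3392 kept barcodes (1.77%, interval 1.35% to 2.27%), and the library labelled BcBKO held 52 among 3535 (1.47%, 1.10% to 1.93%). The median depth of a member was 22302 UMIs in flox/flox and 24263 under the BcBKO label. Summed over members, the libraries gave 1564365 and 1373476 UMIs. The doublet caller marked 0 members, and 114 (1.74%) and 120 (1.60%) of all barcodes that passed the gene, UMI and mitochondrial limits. The libraries shared 23 barcode sequences, of which 2 were a member in either library and 0 in both. Smarcd3 had 28 UMIs in flox/flox members, or 17.9 counts per 1000000 UMIs (CPM, exact Poisson interval 11.9 to 25.9), and 35 in members labelled BcBKO, or 25.5 CPM (17.7 to 35.4). The ratio of 1.42 had an interval of 0.841 to 2.43, so a lower level was not seen under the BcBKO label. The flox/flox total includes 14 members with intestinal transcripts and 4 rich in acinar transcripts, described below, which held 0 Smarcd3 UMIs. Among members with at least 3 UMIs of Spp1 the ratio was 1.07, with an interval of 0.631 to 1.82. In insulin-rich barcodes, the cells named as the target, Smarcd3 stood at 0.393 CPM in flox/flox (interval 0.293 to 0.515). In those of the library labelled BcBKO it stood at 0.730 CPM (0.597 to 0.884). Only 51 of 3176 and 103 of 3946 of these barcodes held a UMI of it. In mural barcodes the levels were 66.6 and 34.4 CPM. The part of free RNA at so low a level was not tested, so insulin-rich barcodes cannot check the label. Whether the counted 3′ tag lies outside the deleted part is not given in the sources used here.

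Pancreatic ducts are tubes of epithelial cells that carry acinar enzymes to the gut and add bicarbonate-rich fluid. Their cells are known for keratin 19, for the secreted glycoprotein osteopontin encoded by Spp1, and for the transcription factor Sox9. The small intestine is lined by enterocytes, which take up fat, sugars and vitamin A, by mucus-making goblet cells and by scattered hormone cells. Keratin 19 and the adhesion molecule encoded by Epcam are shared by both tissues, so the rule that chose the members does not separate them.

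Fabp1 and Fabp2 encode fatty acid-binding proteins of the enterocyte, and Rbp2 its cellular retinol-binding protein. Across the 112 members, the thinned counts of Fabp1 and Fabp2 had a Spearman correlation of 0.92, and each had one of 0.88 with Rbp2. In flox/flox alone the values were also 0.92 and 0.88. Under the BcBKO label none could be computed, since the thinned counts did not vary. The correlations thus rest largely on the 14 members, all of flox/flox, with 3 or more UMIs of any of these genes. They are descriptions across cells of the same 2 libraries. Since these 3 genes lay largely in the same few members, their promoters are shown, with that of Spp1 for contrast. Each is the 300 bases from 250 before to 50 after the start site in RefSeq (build GRCm38.p6), read on the strand of the gene. They lie at chr6:71199629-71199928 for Fabp1, chr3:122894822-122895121 for Fabp2, chr9:98490287-98490586 for Rbp2 and chr5:104434861-104435160 for Spp1, all on the plus strand. Capitals mark letters searched for on both strands.
Fabp1: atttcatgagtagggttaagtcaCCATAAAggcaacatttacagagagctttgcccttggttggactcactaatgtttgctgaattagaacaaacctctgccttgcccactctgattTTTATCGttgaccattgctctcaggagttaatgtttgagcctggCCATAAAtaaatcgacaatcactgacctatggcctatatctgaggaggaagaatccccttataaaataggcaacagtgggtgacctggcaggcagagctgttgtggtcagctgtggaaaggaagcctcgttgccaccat
Fabp2: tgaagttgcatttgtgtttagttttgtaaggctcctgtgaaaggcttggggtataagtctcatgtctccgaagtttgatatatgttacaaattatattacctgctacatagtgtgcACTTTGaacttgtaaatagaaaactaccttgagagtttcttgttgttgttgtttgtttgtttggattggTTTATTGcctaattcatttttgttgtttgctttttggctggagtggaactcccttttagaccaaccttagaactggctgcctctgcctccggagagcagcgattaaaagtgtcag
Rbp2: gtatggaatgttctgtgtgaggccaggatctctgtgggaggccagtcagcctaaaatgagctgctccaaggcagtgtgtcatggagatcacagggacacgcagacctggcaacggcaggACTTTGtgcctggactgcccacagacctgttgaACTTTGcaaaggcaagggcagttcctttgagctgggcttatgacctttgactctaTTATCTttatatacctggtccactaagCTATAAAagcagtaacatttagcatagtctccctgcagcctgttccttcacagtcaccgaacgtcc
Spp1: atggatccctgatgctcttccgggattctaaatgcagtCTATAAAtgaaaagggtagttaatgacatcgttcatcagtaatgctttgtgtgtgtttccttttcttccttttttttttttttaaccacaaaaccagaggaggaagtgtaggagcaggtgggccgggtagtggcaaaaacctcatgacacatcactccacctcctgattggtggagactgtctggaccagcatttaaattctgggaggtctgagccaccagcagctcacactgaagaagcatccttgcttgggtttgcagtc
The letters TTTATNG, from sites of the intestinal factor CDX, were found 3 times in the Fabp1 window and 1 time each in those of Fabp2, Rbp2 and Spp1. They also occurred 1 time each in the windows of Epcam and Sct, and 10.9% of the 32851 promoters of this length held them. The reverse strand reads CNATAAA, which overlaps the letters of a TATA box. The letters CAAAGT, from sites of HNF4, were found 1 time for Fabp2 and 2 times for Rbp2 and occurred in 14.4% of all promoters. AGATAA, from sites of GATA factors, was found 1 time for Rbp2 and occurred in 11.2%. A match describes the letters alone. Of the 8 genes looked up, 6 matched an entry, with 2 start sites for Spp1, and Krt19 and Spink4 are named only.

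Spp1 divided the members without a value in between. It had at least 10 UMIs in 94 members, 42 of flox/flox and 52 labelled BcBKO, and 0 or 1 UMI in the other 18, all of flox/flox. In the 42 flox/flox members with Spp1 the lowest count was 69, the median 368 and the highest 1047. In the 52 labelled BcBKO the lowest was 10, the median 186.5 and the highest 908. Of the 18 members without appreciable Spp1, 4 were rich in acinar enzyme transcripts (21.3% to 60.2% of their UMIs) and 14 held intestinal transcripts.

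At a minimum of 3 UMIs, Fabp1, Fabp2 or Rbp2 was found in 14 members, all of flox/flox, and 0 of these 14 had 3 UMIs of Spp1. At least 1 UMI of any of the 3 genes was seen in 9.47% of members with a UMI of Spp1 and in 76.5% of members without. The former include 1 intestinal member with 1 UMI of Spp1 and 872 of Fabp1. As a background, of 1038 flox/flox endothelial barcodes 0.867% had a UMI of Fabp1, 0.674% one of Fabp2 and 0.674% one of Rbp2, at a median of 5463 UMIs. Of the deeper flox/flox members with Spp1, 2.38%, 7.14% and 7.14% did, and the part of free RNA in these was not tested. Among the 94 members with Spp1, Fabp1 was seen in 1 (1.06%, interval 0.0269% to 5.79%), Fabp2 in 3 (3.19%, 0.663% to 9.04%) and Rbp2 in 4 (4.26%, 1.17% to 10.5%), never with more than 1 UMI. With every cell thinned to 2000 UMIs, 0 members with Spp1 in the thinned counts held Fabp1, Fabp2 or Rbp2. In the 52 members labelled BcBKO, Fabp1, Fabp2 and Sct were at 0, which allows up to 5.77% of such barcodes to hold a UMI and does not limit the share of cells that express the gene, and Rbp2 had 1 UMI.

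**Figure D1:**
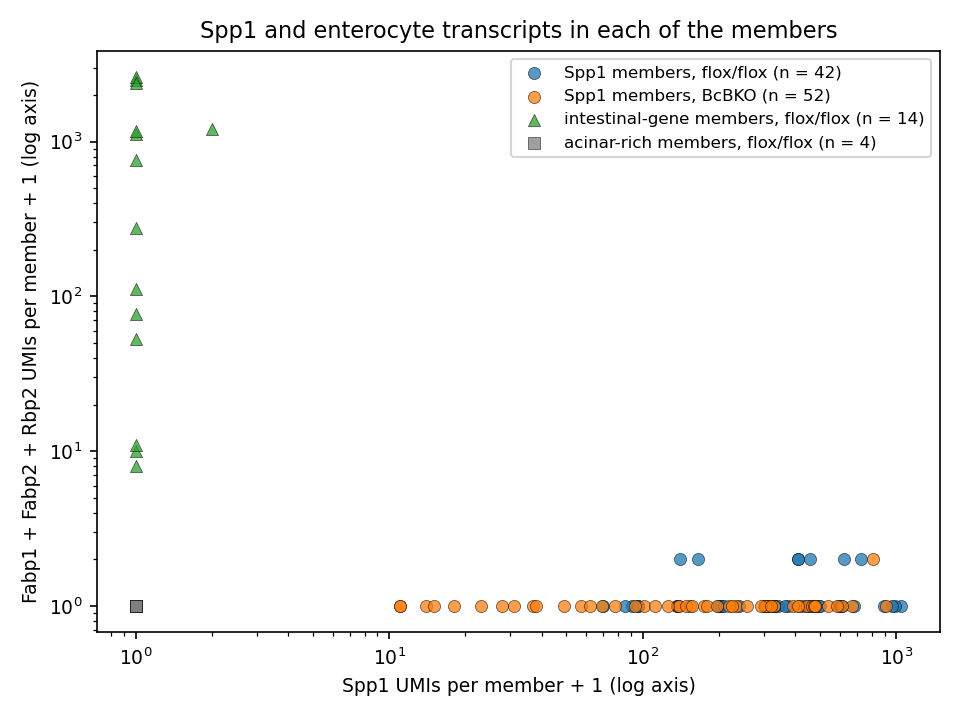
Spp1 UMIs (horizontal, log axis) against the summed UMIs of Fabp1, Fabp2 and Rbp2 (vertical, log axis) in each of the 112 members, with 1 added to both. The 94 members with Spp1 lie along the bottom at 0 or 1 UMI of the 3 genes, and the 14 members with intestinal transcripts lie at 0 or 1 UMI of Spp1.

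With the libraries pooled, nearly all UMIs of the 5 intestinal genes in kept barcodes lay in members. The share was 99.5% for Fabp1 (6779 of 6813 UMIs), 98.6% for Fabp2, 99.1% for Rbp2, 98.4% for Sct and 95.8% for Spink4. Krt19, which the rule used, had 97.5% of its UMIs in members. For Spp1 it was 85.7%, and Epcam, which islet endocrine cells also carry, had 32.8%. In the library labelled BcBKO alone, members held 0 of 2 UMIs of Fabp1, 0 of 8 of Fabp2, 1 of 2 of Rbp2 and 0 of 28 of Sct, but 1281 of 1337 of Spink4. For Sct, the hormone secretin, 3255 of the 3269 UMIs in members came from 1 barcode.

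The 14 members with intestinal transcripts were of 3 kinds. In 10 of them Fabp1 led, with counts from 46 to 1496 UMIs. Fabp2 ranged from 7 to 410 UMIs in these 10 members and Rbp2 from 15 to 939. Their summed level was 25161.1 CPM for Fabp1, 7245 CPM for Fabp2 and 12945.4 CPM for Rbp2, against 0.852, 2.56 and 2.56 CPM in flox/flox members with Spp1. All 10 had at least 16 Krt19 UMIs, up to 53. Mitochondrial UMIs made up a median of 7.70% in these 10 members, against 3.84% in members with Spp1, and whether this moves with their gene levels was not tested.

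Within the 10, 2 members held transcripts of dividing cells. These had 57 and 170 UMIs of Fabp1, 9 and 6 of the proliferation gene Mki67 and 12 each of Top2a, the topoisomerase of dividing cells, and 0 or 1 of Apoa1. The other 8 had 0 UMIs of Mki67 and Top2a, and 0 to 327 of Apoa1, an apolipoprotein of fat-carrying particles, the 0 in the member with 46 Fabp1 UMIs. Haemoglobin transcripts were uneven: the 8936 CPM of Hbb-bs in the 10 members came from 2 of them, 1 with 2399 UMIs and 1 with 1.

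In 3 members Spink4, a goblet-cell peptide, led with 83, 43 and 804 UMIs. Tff3, a trefoil peptide of mucus, had 418, 748 and 840 UMIs in these members, and the mucin gene Muc2 had 37 to 88. The summed levels were 79514.8 CPM for Tff3, 6620 CPM for Muc2, 26557.8 CPM for Agr2, which folds mucins, and 4757 CPM for Clca1, a secreted protein of mucus. Agr2 had 2, 3 and 665 UMIs in these members, so its summed level came almost wholly from 1 of them. In the 10 members led by Fabp1, Muc2, Tff3, Agr2 and Clca1 were at 0. These 3 members were shallow or moderate in depth, with 2940, 3454 and 18834 UMIs.

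The last member held 3255 Sct UMIs among 14733, together with 99 UMIs of Tph1, which makes serotonin, and 56 of the granule protein Chga. Chgb, a second granin, reached 45272.5 CPM in it. Fabp1, Fabp2 and Rbp2 had 3, 5 and 1 UMIs there. Spp1 was at 0 in 13 of the 14 members with intestinal transcripts, and the last, led by Fabp1, held 1 UMI.

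**Figure D2:**
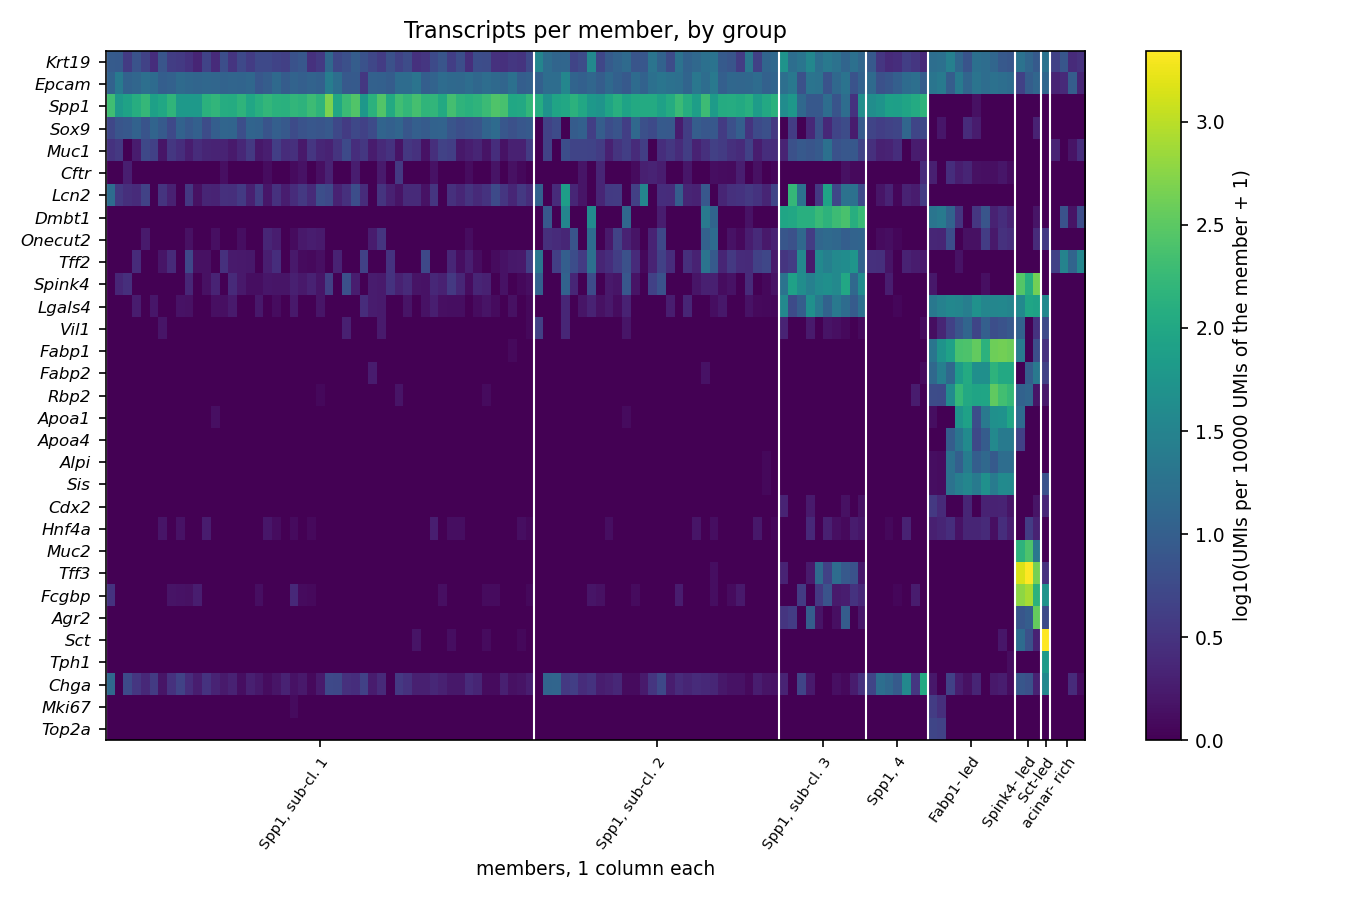
Colour gives log10 of UMIs per 10000 UMIs of the member, plus 1, for 31 genes (rows) in 112 members (columns), ordered by Spp1, leading intestinal gene and sub-cluster. The Spp1 row is bright where the Fabp1, Fabp2 and Rbp2 rows are dark, and Tff3, Muc2 and Sct are each bright in a few of the remaining columns.

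Gene lists were compared between the same groups. Counts are of list genes at 100 CPM or more, a level that 5.56% of all 28692 genes reached in flox/flox members with Spp1 and 5.0% in the 14 members with intestinal transcripts. Of 38 enterocyte genes, 29 reached it in the 14 members, 1 in flox/flox members with Spp1 and 2 in members with Spp1 labelled BcBKO. Sis, the sucrase-isomaltase of the brush border, stood at 2214 CPM in the 14 members and 0.852 CPM in flox/flox members with Spp1. Alpi, intestinal alkaline phosphatase, stood at 898 and 0.852 CPM. Plb1 and Cyp3a11 of this list were at 0 in both.

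Fat uptake and transport had 12 of 17 genes at 100 CPM or more in the 14 members and 0 in members with Spp1 of either library. Mttp, which loads fat onto apolipoprotein B, was at 894 CPM and in 10 of the 14 members. It had a UMI in 28 of the 94 members with Spp1. Apob itself was at 603 CPM against 0. Among 13 retinoid genes, 3 reached the level in the 14 members, Rbp2, Rdh7 and Aldh1a1. Aldh1a1, a retinaldehyde dehydrogenase, did not differ there, at 117 CPM in both.

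Duct markers ran the other way. Of 28, 23 reached 100 CPM in flox/flox members with Spp1, 24 in those labelled BcBKO and 9 in the 14 members, where 10 were at 0. Clu, the secreted chaperone clusterin, had 9682 UMIs in flox/flox members with Spp1 (8250 CPM) and 0 in the 14 members, which allows up to 9.72 CPM. Bicc1, an RNA-binding protein of tubular epithelia, had 1039 UMIs and 0. Muc1, Ambp, Pkhd1, Wfdc2 and Dcdc2a were also at 0 in the 14. Krt8, a keratin of simple epithelia, stood at 2073 and 1825 CPM, and Cldn7, a tight-junction claudin, at 536 and 1070 CPM. Krt19, which the rule required, stood at 655 and 1212 CPM.

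Of 28 epithelial and intestinal transcription factors, 12 reached 100 CPM in flox/flox members with Spp1 and 8 in the 14 members. Klf5 stood at 118 and 136 CPM, Gata6 at 296 and 104 CPM and Klf4 at 287 and 90.8 CPM. Sox9 was at 662 CPM in flox/flox members with Spp1 and 32.4 CPM in the 14 members, Hhex at 382 CPM and 0, and Prox1 at 209 CPM and 0. In the opposite direction, the intestinal factors Cdx2 and Cdx1 were at 100.5 and 71.3 CPM in the 14 members and 0 in flox/flox members with Spp1. Isx, a factor of intestinal retinoid control, was at 64.8 CPM against 0, and Creb3l3, a regulator of apolipoprotein genes, at 311 against 0.852 CPM. Cdx2 was detected in 9 of the 14 members and in 4 of the 94 with Spp1.

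Over all 2123 genes at 100 CPM or more in either group, 300 (14.1%) were at least 4-fold higher in the 14 members than in flox/flox members with Spp1 and 291 (13.7%) at least 4-fold lower, 591 (27.8%) in all. Since the groups were split by Spp1 and the acinar share, after the values were seen, these are descriptions. The median log2 ratio over all genes tested was -0.21. Immediate-early genes, which respond within minutes to handling and other stimuli, had 9 of 12 past 4-fold lower (median -2.38). Fos was at 5518 CPM in flox/flox members with Spp1 and 762 CPM in the 14 members.

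Endocrine transcripts were present in every group of members. The 10 beta genes, which include the insulin genes, summed to 19073.7 CPM in flox/flox members with Spp1, 24069.6 CPM in those labelled BcBKO and 14211.6 CPM in the 14 members, against 38809.3 CPM in endothelial barcodes. The 7 alpha genes summed to 2175, 9629 and 687 CPM in these groups and the 4 delta and PP genes to 568, 3427 and 314 CPM, against 1426 and 2791 CPM in endothelial barcodes. Members that also met the rule of a comparison class were 2 for alpha, 2 for endothelial, 1 for macrophage and 4 for acinar barcodes. Lists of macrophage, endothelial, mural and mesothelial genes had 0 genes at 100 CPM or more in the 14 members and in members with Spp1 of either library. Summed, the 7 macrophage genes gave 124 CPM in flox/flox members with Spp1, 24.8 CPM in those labelled BcBKO and 9.72 CPM in the 14 members, against 19341.2 CPM in macrophage barcodes. The 20 acinar genes summed to 604, 249 and 804 CPM in the same groups and to 439289.6 CPM in the 4 acinar-rich members, where 18 of 20 reached 100 CPM. Those 4 had 3 to 9 Krt19 UMIs and 0 of Spp1 and of the 5 intestinal genes. Among the genes of the gastric list, Gkn1, Gkn2, Muc5ac and Muc6 were at 0 in both groups.

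**Figure D3:**
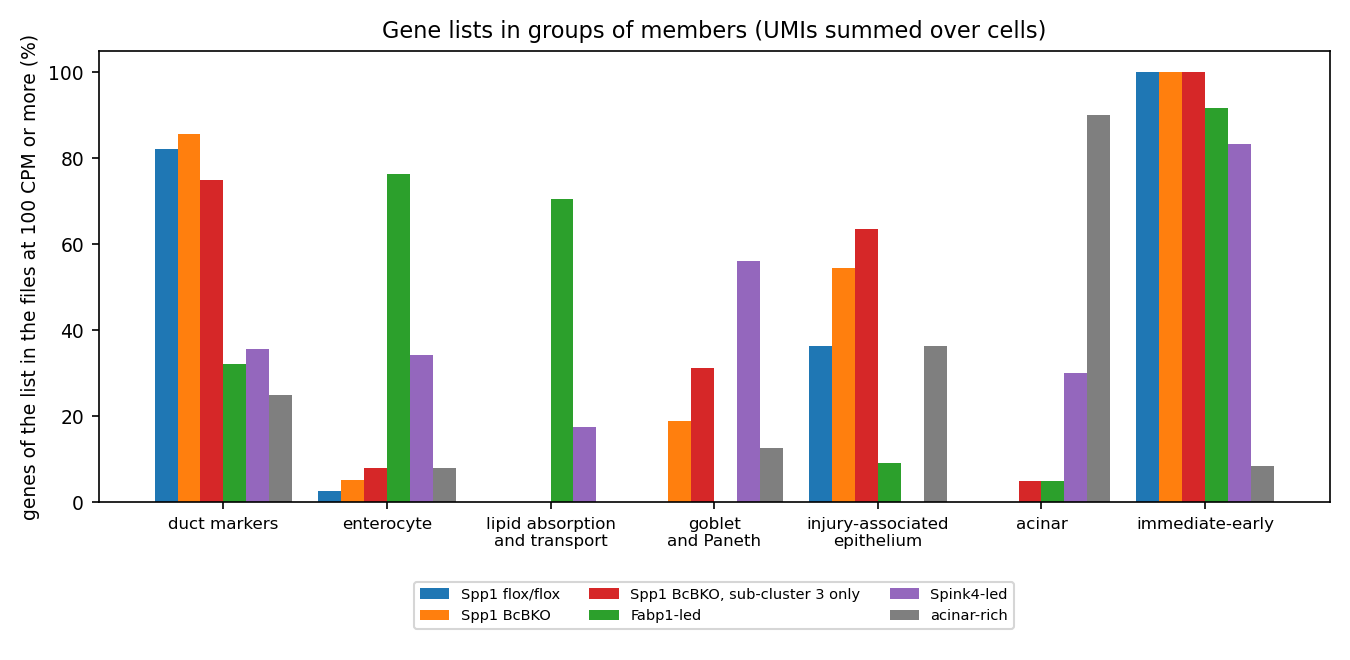
Bars give the percent of each list's genes that reached 100 CPM in UMIs summed over the members of a group. Duct markers stand higher in the 3 groups with Spp1 (82.1% and 85.7% in all members with Spp1 of each library) than in the others, at 35.7% or less. Enterocyte and lipid genes are highest in the members led by Fabp1, at 76.3% and 70.6%.

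Spink4 did not follow the other 4 intestinal genes. It had a UMI in 65 of the 94 members with Spp1 (69.1%, interval 58.8% to 78.3%), 30 of 42 in flox/flox and 35 of 52 labelled BcBKO, against 0.374% of endothelial barcodes. In flox/flox members with Spp1 it had at most 8 UMIs, with a median of 1. In those labelled BcBKO the median was 2 and the highest 464. Thinned to 2000 UMIs, 14.3% of flox/flox and 30.8% of BcBKO-labelled members with Spp1 held it.

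Among members with Spp1, 10 of the 11 counts of 16 or more lay in 1 sub-cluster. Clustering without Spp1, the rule genes and the 5 intestinal genes gave 6 sub-clusters of members, with 49, 33, 10, 8, 8 and 4 members. Sub-clusters 1 and 2 came from both libraries (24 and 25, then 20 and 13 members of flox/flox and of the library labelled BcBKO). Sub-cluster 3 held 10 members, all labelled BcBKO, though genes that marked it were also found in flox/flox members of sub-cluster 2, as given below. Spink4 in its members ran from 16 to 464 UMIs with a median of 80.5, and its summed level was 4630 CPM against 88.5 CPM in the other members with Spp1 labelled BcBKO. Spp1 itself was lower in sub-cluster 3, from 10 to 223 UMIs, or 1892 CPM against 11329.7 CPM in the others.

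**Figure D4:**
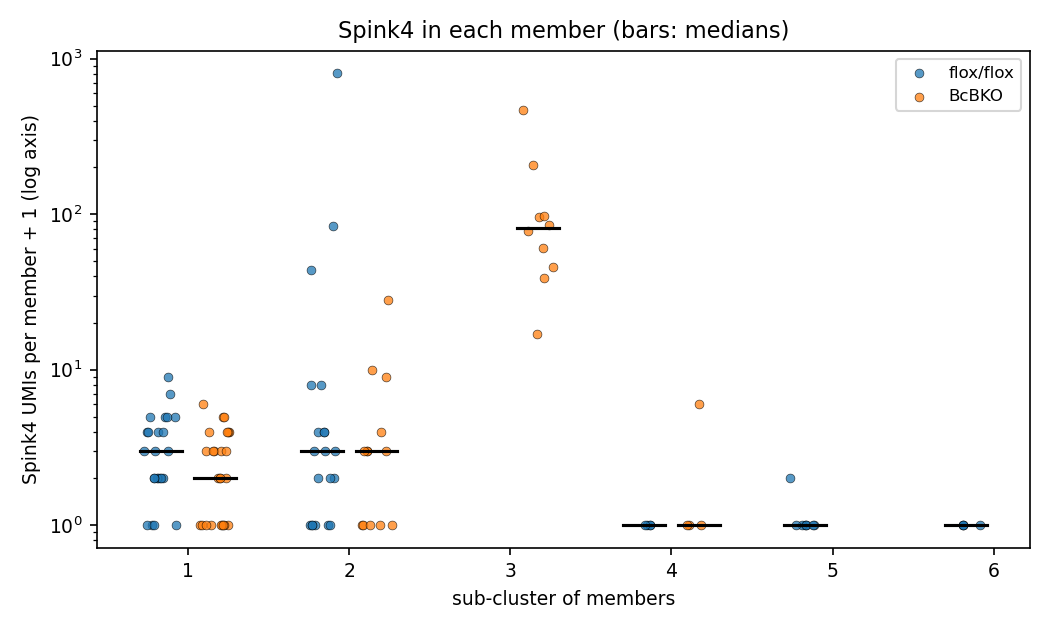
Spink4 UMIs plus 1 (log axis) in each member, by sub-cluster and library, with bars at medians. The 10 members of sub-cluster 3, all labelled BcBKO, lie between 16 and 464 UMIs, and the 3 high flox/flox points in sub-cluster 2 are the members led by Spink4.

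Several secreted proteins led sub-cluster 3. Dmbt1, a secreted scavenger protein, had 82 to 1099 UMIs in each of its 10 members and 16758.9 CPM in sum, against 134 CPM in the other BcBKO-labelled members with Spp1. Ltf, lactoferrin, had 182 UMIs against 0. Ly6d, a membrane-anchored surface protein, stood at 3761 against 70.7 CPM, the neutrophil attractant Cxcl5 at 803 against 6.26 CPM, and Lcn2, which binds bacterial iron carriers, at 2241 against 365 CPM. Tff2, a trefoil peptide, was at 3040 against 145 CPM, and Duox2 and Duoxa2, which together produce hydrogen peroxide, had 109 and 99 UMIs against 0. Onecut2, a transcription factor, stood at 1022 against 78.7 CPM. In sub-cluster 3, 4.99% of all genes reached 100 CPM. Of 11 genes listed for injured epithelium, 7 did in sub-cluster 3 and 4 in flox/flox members with Spp1. In sub-cluster 1 and in members with Spp1 of sub-cluster 2, both of mixed libraries, 4 did in each. Of the goblet and Paneth genes 5 of 16 did in sub-cluster 3, and 8 were undetected there. Among the 5 were Tff3 and Agr2 with 139 and 61 UMIs, and 1 member held 39 of those of Agr2. In flox/flox members with Spp1 and in sub-cluster 1, 0 genes of this list reached 100 CPM, and in members with Spp1 of sub-cluster 2, 1 did. Smarcd3 had 15 UMIs in sub-cluster 3, or 58.8 CPM. Since the clustering used these genes, they describe the sub-cluster and test nothing.

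Duct genes were unevenly kept in sub-cluster 3. Krt19 was higher, at 1724 against 523 CPM, Muc1 was at 686 CPM and Clu at 6703 CPM, and 21 of 28 duct markers reached 100 CPM. Of the same list, Dcdc2a was lower, at 15.7 against 459 CPM in the other BcBKO-labelled members with Spp1. Outside the list, Apoe stood at 23.5 against 5660 CPM, Cldn10 at 0 against 353 CPM and Cp, ceruloplasmin, at 58.8 against 1438 CPM. Of 1858 genes at 100 CPM or more, 91 (4.90%) were at least 4-fold higher in sub-cluster 3 and 69 (3.71%) at least 4-fold lower, 160 (8.61%) in all. Its members held 0 UMIs of Fabp1, Fabp2, Rbp2, Sct and Muc2, and Cdx2 had 6 UMIs in all.

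Sub-clusters 1 and 2 differed less. Among their members with Spp1, 4 of 1777 genes (0.225%) were at least 4-fold higher in sub-cluster 1 and 9 (0.506%) in sub-cluster 2, 13 (0.732%) in all. The 4 were Pigr, the receptor that moves antibodies across epithelia, at 499 against 47.3 CPM, Apoc1 at 496 against 99.9 CPM, Cldn10 at 434 against 96.0 CPM, and Alb at 164 against 32.9 CPM. Genes higher in sub-cluster 2 included Dmbt1 (0 against 233 UMIs), S100a6 (45.3 against 643 CPM), Onecut2 (21.5 against 206 CPM) and Tspan8 (41.5 against 373 CPM). Dmbt1 and Onecut2 were thus also genes that marked sub-cluster 3, and in sub-cluster 2 both libraries carried them. In flox/flox, 1 member with Spp1 had 46 UMIs of Dmbt1 and 21 of Onecut2, and another had 34 and 44. Under the BcBKO label, 1 member of sub-cluster 2 had 76 and 27. Sub-cluster 4 held 8 members, of which 6 had 33 to 438 UMIs of Chga. Among them were the Sct member and 2 members with 2175 and 6863 UMIs of glucagon (Gcg).

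Comparing the libraries over all members mixed these kinds. Of 1713 genes at 100 CPM or more in either library, 29 (1.69%) were at least 2-fold higher in members labelled BcBKO and 94 (5.49%) at least 2-fold lower, 123 (7.18%) in all. The lowest were Fabp1, with 0 against 6779 UMIs, Reg1, with 4 against 4884, Sct, with 0 against 3269, Rbp2, with 1 against 3489, and Fabp2, with 0 against 1998. Of these 4884 Reg1 UMIs, 4086 lay in the 14 members, and Reg1 stood at 9646 CPM in the 4 acinar-rich members. Fabp1, Fabp2, Rbp2 and Sct lay almost wholly in the 14 members. The highest were Ly6d (757 against 2.56 CPM), Mup20 (167 against 0.639 CPM), Dmbt1 (3224 against 188 CPM), Cxcl5 (154 against 1.28 CPM) and Ltf (182 against 0 UMIs).

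Among members with Spp1 alone, 34 of 1714 genes (1.98%) were past 2-fold higher and 7 (0.408%) lower, 41 (2.39%) in all. Only 1 of the 94 lower genes was shared with the comparison over all members, whereas 25 of the 29 higher genes were. Sub-cluster 3 was drawn from these same genes and lay in 1 library, so leaving it out lowers the calls partly by construction. Flox/flox members with Dmbt1 in sub-cluster 2 stayed in. Without sub-cluster 3, 5 of 1705 genes (0.293%) were higher and 3 (0.176%) lower, 8 (0.469%) in all. The 5 were Gcg, Sst, Ppy, Pyy and Rbp4, named because they are the whole count. Of the 9712 Gcg UMIs under the BcBKO label, the 2 members named above held 2175 and 6863. Levels in alpha or delta barcodes were 280177.7 CPM for Gcg and 171892.8 CPM for Sst, against 8685 and 1445 CPM in these members, and the part of free RNA or of mixed barcodes in them was not tested. The 3 lower were Arrdc2, an arrestin-domain protein (24.2 against 104 CPM), Usp2, a ubiquitin protease (48.3 against 109 CPM), and Cd74, the MHC class II chain that macrophages carry (67.1 against 164 CPM). Over all members with Spp1, sub-cluster 3 included, the 7 macrophage genes summed to 124 CPM in flox/flox and 24.8 CPM under the BcBKO label. Whether this bears on Cd74 was not tested.

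**Figure D5:**
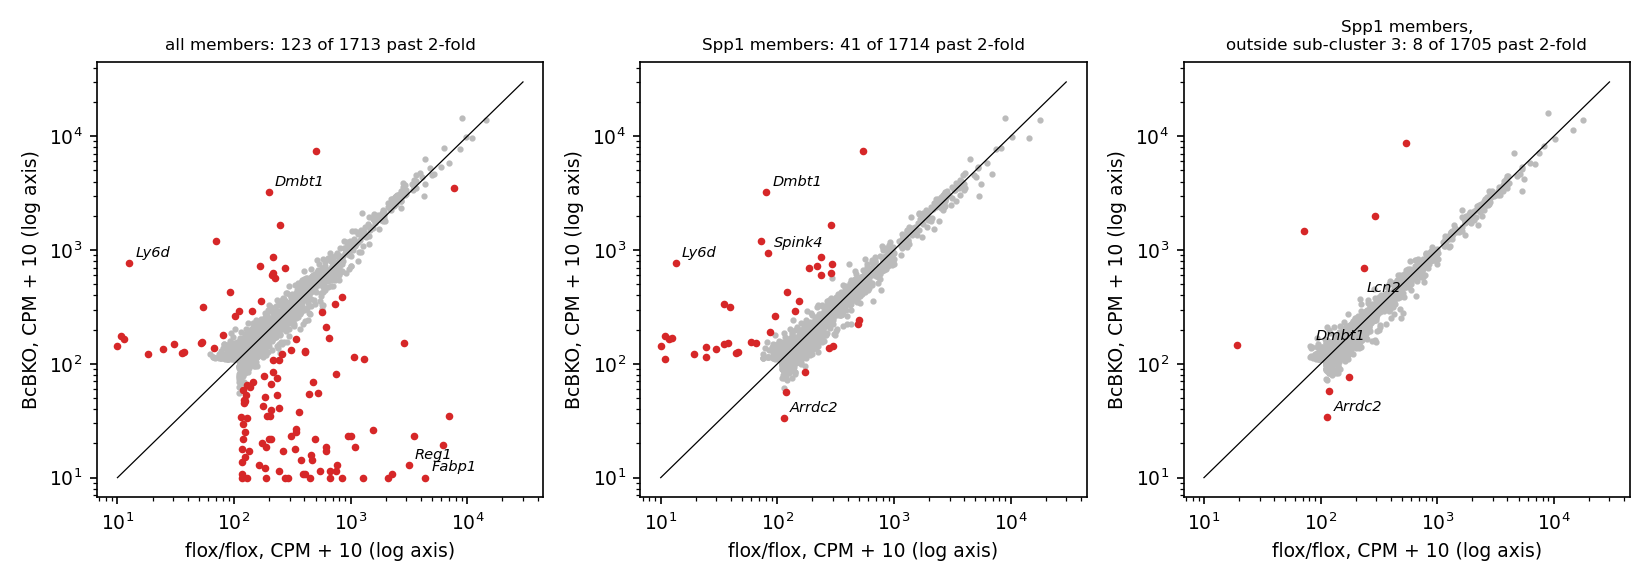
Each point is a gene, with its flox/flox level (horizontal) and its level in the library labelled BcBKO (vertical), both in CPM plus 10 on log axes, and red marks genes past 2-fold. From left to right the number past 2-fold is 123 of 1713 over all members, 41 of 1714 in members with Spp1 and 8 of 1705 outside sub-cluster 3. Leaving out sub-cluster 3, drawn from the same genes, took members from the library labelled BcBKO only.

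Levels of the defining genes in members with Spp1 outside sub-cluster 3 differed by less than 2-fold between libraries. Spp1 stood at 11329.7 CPM in the library labelled BcBKO and 14482.7 CPM in flox/flox (ratio 0.782, interval 0.764 to 0.801), Krt19 at 523 and 655 CPM (0.798, 0.716 to 0.890) and Epcam at 1047 and 1248 CPM. Spink4 was at 88.5 and 72.4 CPM (1.22, 0.906 to 1.65) and Tff2 at 145 and 178 CPM. With sub-cluster 3 kept in, the ratios were 12.9 (10.3 to 16.2) for Spink4 and 3.83 (3.30 to 4.48) for Tff2. Smarcd3 had 20 UMIs in the library labelled BcBKO and 28 in flox/flox (ratio 0.750, interval 0.400 to 1.38), and the related subunits Smarcd1 and Smarcd2 had ratios of 0.787 and 1.05.

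Against 7 comparison classes (insulin, alpha, delta, acinar, endothelial, mural and macrophage barcodes), 104 of 1547 genes at 100 CPM or more in members (6.72%) were at least 4-fold above the highest class. The same count in members with Spp1 was 92 of 1567 (5.87%). Members with Spp1 were chosen by that gene, and genes entered only by their level in members, so these counts and ranks are descriptions. The 4 highest ratios in members with Spp1 were those of Spp1 (11836.7 CPM against 132.5 in alpha barcodes), Tstd1 (822 against 2.36 CPM), Wfdc2 (464 against 0.787 CPM) and Ces1d (555 against 3.68 CPM). Spink4, Pigr, Ly6d, Lcn2 and Gsta3 came next, of which Ly6d was detected in 16 of the 94 members. Sox9 stood at 643 CPM. The genes whose thinned counts ranked most like the sum of the 5 intestinal genes across 112 members were Lgals4 (Spearman 0.77), Plac8 (0.74) and Lgals2 (0.68). The least alike were Apoe (-0.59) and Spp1 (-0.56).

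With 3 or 4 Krt19 UMIs, 14 members lay just inside the rule, of which 11 had 3 or more Spp1 UMIs, at a median depth of 11786.5 UMIs. With 2, 10 barcodes lay just outside, of which 7 did, at 5884 UMIs. The mitochondrial limit removed 6 barcodes that met the gene limits, 4 of them with 3 or more UMIs of Fabp1, Fabp2 or Rbp2. No kept barcode had 3 Krt19 UMIs without Epcam, and 15 barcodes met the gene limits but were over the insulin limit, with a median of 44.2% insulin UMIs.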

How the data were processed

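Single-cell RNA of mouse islets was measured in 2 libraries. The authors deposited raw counts of UMIs per gene and barcode. The submitters' processing notes name Cell Ranger 3.1.0, Seurat 4.0.0 and mm10, while the file headers name version 6.1.2 of the counting software; the gene annotation is not given in the sources used here. Gene positions came from GENCODE M21, which held 28339 of 28692 identifiers.

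Members and comparison classes were taken from raw UMIs, without replacing any value. Doublets were called with Scrublet in scanpy 1.11.5 at an expected rate of 8% and were kept unless stated. Members were clustered with leidenalg 0.10.2 (2000 variable genes, 15 components, 10 neighbours, resolution 0.5, seed 1). UMIs were summed over cells and scaled to CPM, and log2 ratios used a pseudocount of 10 CPM, which understates differences of low genes. Genes needed 100 CPM in either group, or in the members for the comparison with other classes. 1 named gene and 1 promoter motif are not reported here. Intervals are exact at 95% and cover counting error only; a limit for a count of 0 is 3 counts. With 1 library per group no test was made. Python was version 3.11.15, and the TMM alternative came from edgeR 4.0.16 (R 4.3.3). The functions were tested on simulated data.

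Named genes are the rule genes, Spp1, the 5 intestinal genes, the 12 highest and 12 lowest between libraries, the 20 highest over other classes, the 10 highest and 5 lowest by correlation, the most abundant and undetected genes of each list, and Smarcd1, Smarcd2 and Smarcd3; not every one is given. Others are named because they are a whole count, or were chosen after their values were seen. Mitochondrial, ribosomal, Y-linked and Xist, acinar and hormone genes were not eligible by size. Members, lists and rules were chosen with earlier results of these data known. The split by Spp1, the acinar-rich group and the 3 kinds of intestinal member were set after the values were seen.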

Additional observations from a re-analysis of the deposited data

Results flagged for a closer look

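Intestinal transcripts also appeared in barcodes that the limits removed. Of the flox/flox barcodes with over 20% mitochondrial UMIs, 18 held at least 3 UMIs of Fabp1 and at least 3 of Fabp2 or Rbp2, whereas 0 barcodes of the library labelled BcBKO did at any mitochondrial share. Their mitochondrial share had a median of 71.0% and ran from 22.3% to 79.4%, with a median of 4314 UMIs. In all, 33 deposited flox/flox barcodes met this condition, of which 13 were members and 2 were within the mitochondrial limit but not kept. Of the 18, 6 had a UMI of Krt19 and 0 had one of Spp1. They were flagged because they lie outside every comparison above.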

How the results depend on the processing

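Of 120 alternatives to the main values, 94 stayed within the main interval or within 1.5 times the main count and 26 moved. A change of direction was not scored separately. Leaving out called doublets and dropping the Epcam minimum left the members unchanged, so many of those alternatives could not move. Of 234 alternatives to values of single genes or libraries, 212 stayed and 22 moved. The member share of 1.62% became 2.08% at 4000 UMIs or more, 2.26% with insulin under 5% and 0.904% without an insulin limit. The share of Spp1 UMIs in members, 85.7%, became 87.5% and 79.8% at Krt19 minimums of 2 and 5, 87.1% at 4000 UMIs, 88.5% with insulin under 5% and 63.5% without an insulin limit. That of Fabp1 became 98.5% without an insulin limit and 98.3% without a mitochondrial limit. Members with any of the 5 intestinal genes, 73.2%, became 32.1% when thinned to 2000 UMIs and 45.5% at a minimum of 3 UMIs, so depth limits that share. Among members with a UMI of Spp1, the share that held Fabp1, Fabp2 or Rbp2 fell from 9.47% to 0 when thinned. The thinned counts also decided which members held Spp1, so the 2 sets differ. Genes past 2-fold between libraries (29 higher, 94 lower, 123 in all) became 86, 312 and 398 with no minimum CPM, for which more genes were tested, and 14, 48 and 62 at 300 CPM. Lower calls became 7 and all calls 41 in members with Spp1, and outside sub-cluster 3 the counts were 5, 3 and 8. Genes past 4-fold over other classes, 104, became 56 at a pseudocount of 50 CPM and 42 at 300 CPM. The alternatives for a minimum of 3 UMIs, no mitochondrial limit, members with Spp1 and sub-cluster 3 were chosen after seeing the data. No paired analysis was possible because each group was 1 library. No library could be left out for the same reason.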
